A study of Mus musculus with 37 samples.

Results

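The tumours described here are 2 implanted mouse tumours of clones bulk_6883c1 and bulk_6883c4, 1 library each, set against 15 tumours of 7 clones that the labels call T cell high. They were selected on having no T cell phenotype in the labels, which give it as n.a. and name their source as not used, and they were chosen with their levels of B cell and epithelial genes already known. They are 2 of 37 libraries in all. Bulk RNA was sequenced from tumours of pancreatic tumour cells placed under the skin of C57BL/6 mice, collected after 3 weeks with no treatment, in all groups alike. The other libraries are 15 T cell low tumours, 4 intermediate tumours and 1 more tumour with no phenotype, of clone bulk_7062c3. The labels name no driver allele of the tumour cells and no age of the mice.

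Each bulk_6883 clone is known from 1 tumour, so its differences between mice cannot be seen, while 6 high clones have 2 tumours each and clone bulk_2838c3 has 3. The tumours of a clone share the implanted cells. The site is the tissue under the skin and not the pancreas. Titles are shortened to the clone, and the plots leave out their prefix. No label says how the T cell phenotype was assigned.

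Pancreatic ductal tumours contain malignant epithelial cells in a matrix of fibroblasts, vessels and leukocytes, and their T cell content varies widely. Cytotoxic T cells recognise peptides on MHC class I molecules and release interferon gamma, which induces antigen presentation genes and the chemokines that attract more T cells. Granulocytes enter tumours along CXCR2 ligands and are often abundant where T cells are sparse. Malignant ductal cells can also lose keratins and cell junctions and take up mesenchymal genes, a change known as epithelial to mesenchymal transition.

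Library bulk_6883c1 held 161.7 M counts and bulk_6883c4 held 55.2 M, against 18.2 to 101.4 M in the high libraries (median 33.7 M). A gene at 0 in a shallow high library may therefore have been found at greater depth. Levels are in CPM, the counts of a gene relative to all counts of its library, scaled with TMM over the 17 libraries and not divided by gene length. Differences are on the log2 scale with a prior count of 2 and are taken from the mean of the 7 high clones. The prior count shrinks the differences of genes at low levels.

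RNA of liver and heart was present in both bulk_6883 libraries and in 7 high libraries. Myh6 and Myh7, the myosins of heart muscle, and Cps1 and Serpina3k, which are liver genes, summed to 106 CPM in bulk_6883c1 and 709 CPM in bulk_6883c4, as CPM of the total counts. In 7 high libraries the sum was 283 to 5922 CPM, and the other 8 reached 0.501 CPM at most. Both bulk_6883 tumours and the 7 high tumours with these transcripts are numbered 1 in their titles. In 5 of the 7 the sum was at least 4143 CPM, and these libraries of different clones were also alike in other genes. Among genes described below, Krt7 was at 1021 to 1318 CPM in them and Ctse at 465 to 550 CPM. Over all high libraries these genes spanned 475 to 2412 and 426 to 1367 CPM. Means and SDs over the 7 clones may therefore not reflect 7 independent clones, which was not tested. The counts of called genes over all genes, the marker differences and the list medians were also taken against the high libraries of each class. The counts of called members of each list were not. The part of these transcripts in the results was not tested.

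No test was made, because each bulk_6883 clone has 1 library and the pair was chosen with its values known. In place of a test, a gene was called where a bulk_6883 library lay outside the range of all 15 high libraries and at least 2-fold from the mean of the high clones. Of 16822 genes with at least 0.5 CPM in at least 4 of the 17 libraries, bulk_6883c1 lay above the range for 1638, which is 9.74%, and below it for 1458, or 8.67%. Library bulk_6883c4 lay above for 837 genes, 4.98%, and below for 319, 1.90%. Both lay above for 436 genes, 2.59%, and both below for 210, 1.25%. The shared genes above were 26.6% of those of bulk_6883c1 and 52.1% of those of bulk_6883c4, and the shared genes below were 14.4% and 65.8%. Library bulk_6883c1 thus had more genes outside the range in each direction, and it is also the deepest of the 17 libraries.

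The same rule was applied to each of the 15 high libraries against the high libraries of the other clones. Single high libraries lay above for 139 to 921 genes (median 513) and below for 145 to 930 (median 462). Those ranges come from fewer libraries, which makes them narrower. The lowest counts above, 139 and 145, were in the first tumours of bulk_6620c1 and bulk_6556c4, both among the 5 libraries alike in other genes. The counts of bulk_6883c1 were past both spreads, whereas the 837 genes above in bulk_6883c4 were inside the spread of the high libraries and its 319 below were under their median. Only the first tumour of bulk_7160c2, at 921, had more genes above than bulk_6883c4, and the next highest count was 782, in that of bulk_6555c3. By genes above, bulk_6883c4 was thus near the top of the high libraries. By genes below, it did not stand apart from single high tumours.

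The median difference over all genes was 0.06 in bulk_6883c1 and 0.02 in bulk_6883c4. Against the 7 high libraries with liver and heart transcripts alone, 1482 of the 1638 genes above in bulk_6883c1 were called again, and against the 8 without them 1484. For the 837 genes above in bulk_6883c4 these counts were 762 and 756. Of the genes below, 1298 and 1371 of 1458 were called again in bulk_6883c1, and 234 and 297 of 319 in bulk_6883c4. A gene outside the range of all high libraries is by construction also outside the range of any part of them. Only the required fold from the mean of the class could therefore fail, so high counts were largely fixed in advance. The part of liver and heart transcripts in the calls was not tested by them.

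**Figure D1:**
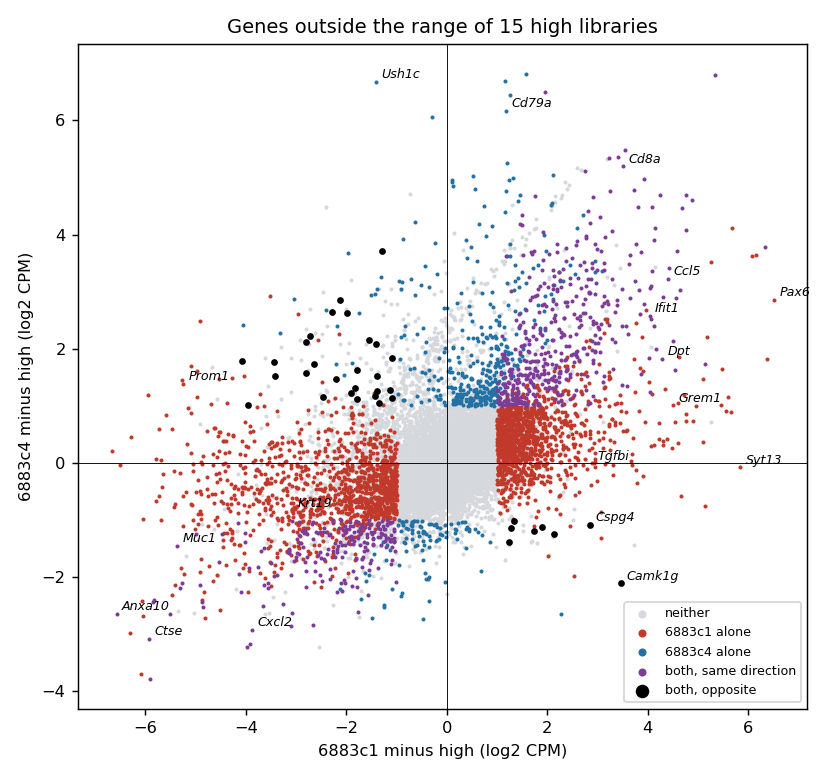
Each point is a gene, with the difference of bulk_6883c1 from the mean of the 7 high clones on the x axis and that of bulk_6883c4 on the y axis, both in log2 CPM. Colours mark genes outside the range of the 15 high libraries in bulk_6883c1 alone, in bulk_6883c4 alone or in both. Most called genes belong to 1 tumour, and 436 lie above and 210 below the range in both.

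**Figure D2:**
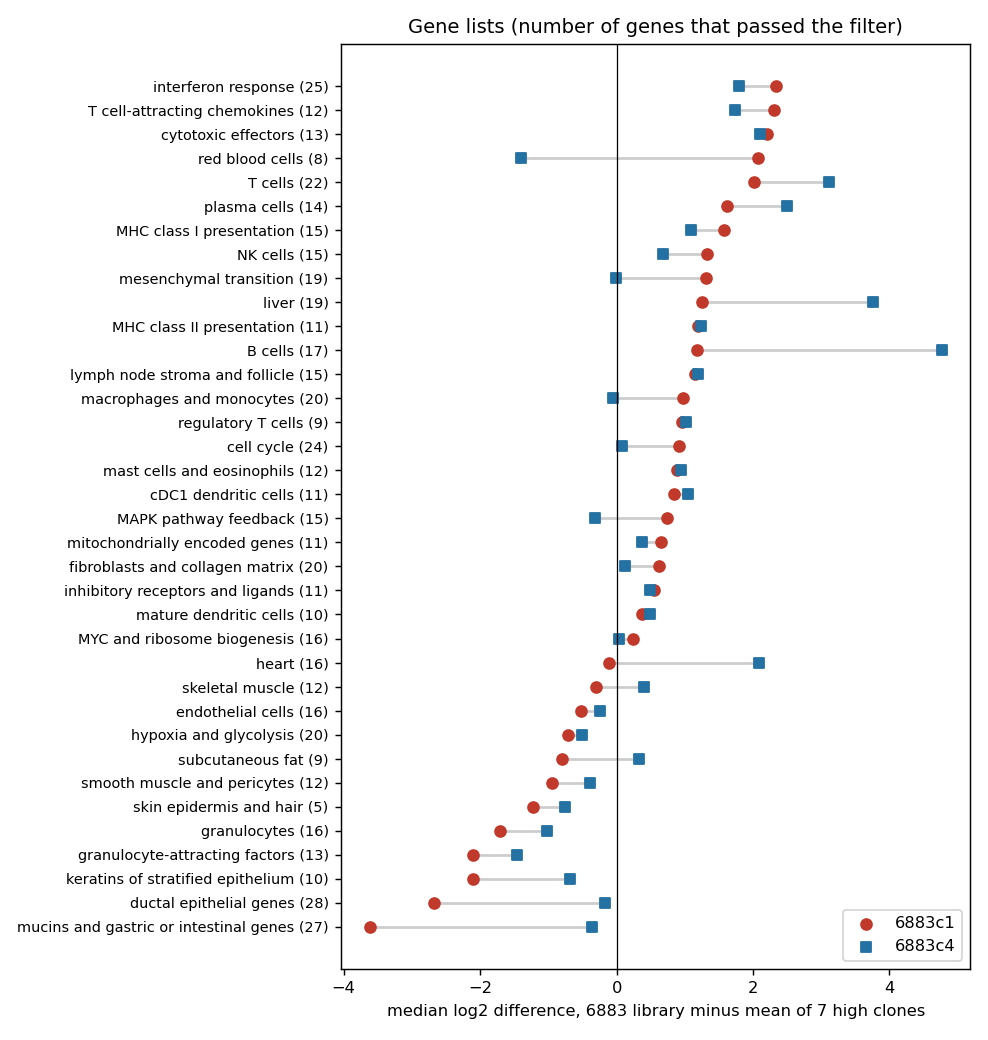
Median log2 difference of each gene list in bulk_6883c1 and in bulk_6883c4, each minus the mean of the 7 high clones, with the number of genes that passed the filter. T cell and interferon lists lie to the right in both tumours, granulocyte lists to the left in both, and ductal, mucin and mesenchymal lists are far from 0 in bulk_6883c1 and near it in bulk_6883c4.

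Of the 5 markers, Cd8a, which encodes the alpha chain of the CD8 co-receptor of cytotoxic T cells, was above all high libraries in both bulk_6883 tumours. It stood at 9.13 CPM in bulk_6883c1 and 29.3 CPM in bulk_6883c4, against 0.04802 to 6.29 CPM in the high libraries (median 0.783). These levels were 3.51 and 5.19 above the mean of the high clones, whose SD was 1.94 on the log2 scale (n = 7 clones). Among all 37 libraries bulk_6883c4 had the highest and bulk_6883c1 the next highest Cd8a relative to the total counts.

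Ncr1, the NK cell receptor NKp46, stood at 1.11 CPM in bulk_6883c1 and 0.427 CPM in bulk_6883c4, against 0 to 0.4797 CPM in the high libraries (median 0.0274). Its counts were 166 and 25 in bulk_6883c1 and bulk_6883c4, and it did not pass the filter on low levels, so it is described without a call. The bulk_6883c1 value was the highest of all 37 libraries, while bulk_6883c4 lay inside the range of the high libraries.

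Cd79a, a signalling chain of the B cell receptor, separated the bulk_6883 tumours from each other. It stood at 1.16 CPM in bulk_6883c1 and 38.01 CPM in bulk_6883c4, against 0.137 to 1.66 CPM in the high libraries (median 0.553). Library bulk_6883c4 was 6.17 above the high clones (SD 0.54) and had the highest Cd79a of all 37 libraries, and bulk_6883c1 was inside the range with a difference of 1.18.

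Krt19, a keratin of ductal epithelium, stood at 134 CPM in bulk_6883c1 and 630.3 CPM in bulk_6883c4, against 569 to 2331 CPM in the high libraries (median 1074). Library bulk_6883c1 was below every high library, by -3.07 on the log2 scale (SD 0.41), and was the lowest of all 37, while bulk_6883c4 was within the range at -0.84. S100a8, a calcium-binding protein of granulocytes, stood at 3.54 CPM in bulk_6883c1 and 6.88 CPM in bulk_6883c4, against 6.99 to 99.2 CPM in the high libraries (median 22.6), so both bulk_6883 tumours were below the range, by -2.56 and -1.61 (SD 0.78), with bulk_6883c4 just under its edge. In GENCODE M21 on GRCm38, the assembly also called mm10, these genes lie at chr6:71373427-71379173, chr7:4337724-4345164, chr7:24897381-24902197, chr11:100140810-100148665 and chr3:90668978-90670035 in the order given.

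**Figure D3:**
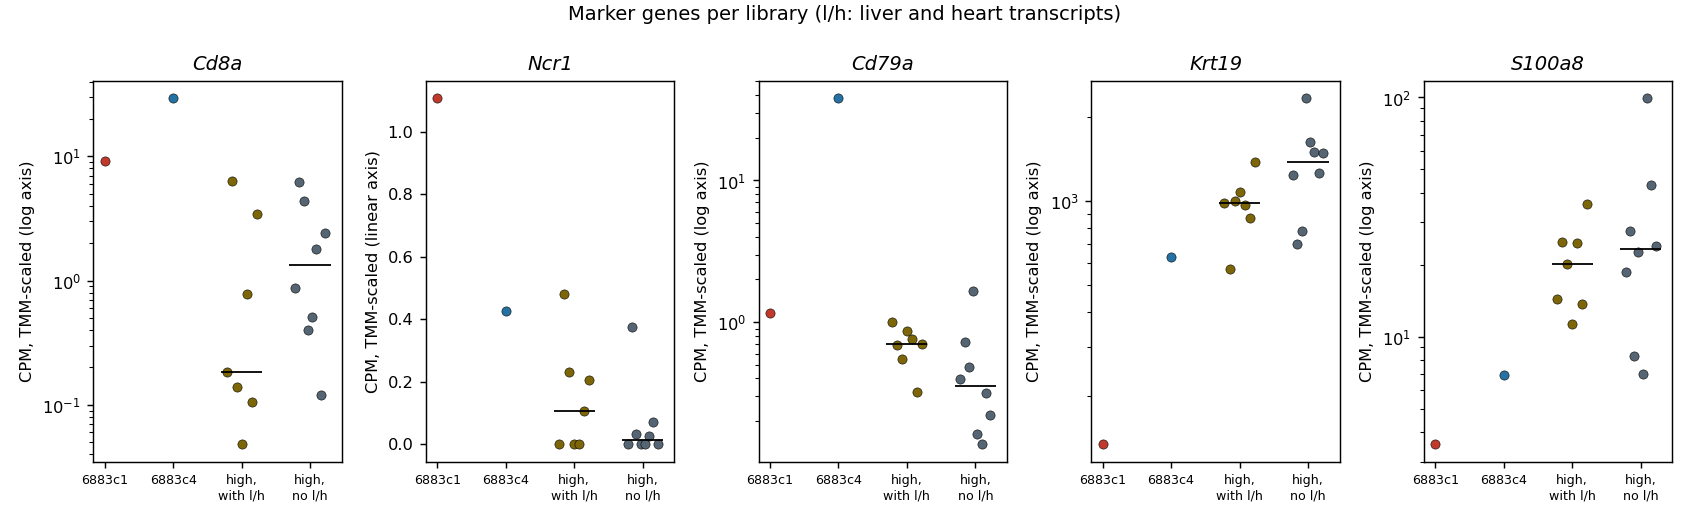
CPM with TMM scaling of the 5 markers in bulk_6883c1, in bulk_6883c4 and in the high libraries with (7) and without (8) liver and heart transcripts, each point 1 library and each bar a median. Cd8a lies above the high libraries in both bulk_6883 tumours, Cd79a in bulk_6883c4, and Krt19 lies below them in bulk_6883c1.

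T cell genes were higher in both bulk_6883 tumours than in the tumours labelled T cell high. Of 22 genes of the T cell list, 14 were above all high libraries in bulk_6883c1, where 9.74% of all genes were, and 19 in bulk_6883c4, where 4.98% were, and none was below in either. The median difference was 2.02 in bulk_6883c1 and 3.12 in bulk_6883c4. Summed over the list, the level was 282 CPM in bulk_6883c1 and 407 CPM in bulk_6883c4, against 71.3 to 298 CPM in the high libraries (median 168). The sum of bulk_6883c1 was within the high range. Thy1, a surface protein of T cells that stromal cells can also make, was the largest part of it in bulk_6883c1, at 85.3 CPM, and was not called. In bulk tumours, more cells of a type and more RNA per cell cannot be told apart.

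Cd8b1, the other chain of CD8, stood at 4.72 CPM in bulk_6883c1 and 18.4 CPM in bulk_6883c4, against 0.0725 to 2.09 CPM in the high libraries (median 0.299). Both tumours were above all high libraries, as they were for 2.59% of all genes. Cd3e, a chain of the T cell receptor complex, stood at 6.11 CPM in bulk_6883c1 and 12.3 CPM in bulk_6883c4, against 0.314 to 4.69 CPM in the high libraries (median 1.38). Both genes were higher in bulk_6883c4 than in bulk_6883c1. Cd4, the co-receptor of helper T cells, was at 9.33 and 13.7 CPM and within the range of 1.595 to 14.3 CPM of the high libraries, so that the bulk_6883 tumours were past the range for CD8 and not for CD4.

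The cytotoxic genes were mixed. Of 13 genes that passed the filter, of 15 listed, 7 were above and 1 below in bulk_6883c1, and 6 were above and 2 below in bulk_6883c4. Their median difference was 2.21 in bulk_6883c1 and 2.10 in bulk_6883c4. Over all genes, 9.74% were above and 8.67% below in bulk_6883c1, and 4.98% and 1.90% in bulk_6883c4. Prf1, the pore-forming protein perforin, stood at 4.397 CPM in bulk_6883c1 and 3.93 CPM in bulk_6883c4, against 0.0354 to 1.28 CPM in the high libraries (median 0.253). Nkg7, a granule protein of cytotoxic lymphocytes, stood at 6.71 CPM in bulk_6883c1 and 10.6 CPM in bulk_6883c4, against 0 to 3.198 CPM in the high libraries (median 0.406). Both genes were more than 8-fold above the mean of the high clones in both tumours.

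Gzmb, granzyme B, stood at 7.01 CPM in bulk_6883c1 and 2.02 CPM in bulk_6883c4, against 0.135 to 3.36 CPM in the high libraries (median 0.531), above the range in bulk_6883c1 and inside it in bulk_6883c4. Gzme, granzyme E, went the other way and stood at 0.2598 CPM in bulk_6883c1 and 1.61 CPM in bulk_6883c4, against 1.65 to 44.2 CPM in the high libraries (median 9.09), which put it below all high libraries in both tumours. The granzyme genes are close relatives in 1 cluster, and no label says how reads matching several of them were counted.

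Chemokines that attract T cells were also above the range, for 9 of 12 genes in bulk_6883c1 and 4 in bulk_6883c4, with median differences of 2.30 in bulk_6883c1 and 1.73 in bulk_6883c4. The shares above over all genes were 9.74% and 4.98%. Ccl5, a chemokine made by T cells, NK cells and macrophages, stood at 40.1 CPM in bulk_6883c1 and 17.8 CPM in bulk_6883c4, against 0.672 to 10.8 CPM in the high libraries (median 1.46). The differences were 4.40 and 3.23 (SD of the high clones 0.99). Cxcl10, a ligand of CXCR3 that interferon induces, stood at 60.6 CPM in bulk_6883c1 and 27.8 CPM in bulk_6883c4, against 2.58 to 19.3 CPM in the high libraries (median 4.78). Cxcl9, another CXCR3 ligand, stood at 33.7 CPM in bulk_6883c1 and 62.2 CPM in bulk_6883c4, against 2.06 to 60.1 CPM in the high libraries (median 5.72), so it was above the range in bulk_6883c4 and within it in bulk_6883c1.

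The monocyte chemokine Ccl2 stood at 74.4 CPM in bulk_6883c1 and 11.4 CPM in bulk_6883c4, against 5.86 to 32.3 CPM in the high libraries (median 13.3), and it was past the range in bulk_6883c1 with bulk_6883c4 near the middle of it. Xcl1, which draws dendritic cells that bear XCR1, stood at 1.43 CPM in bulk_6883c1 and 0.768 CPM in bulk_6883c4, against 0 to 1.197 CPM in the high libraries (median 0.116).

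Of 11 inhibitory receptors and ligands, 0 were above in bulk_6883c1, where 9.74% of all genes were, and 2 in bulk_6883c4, where 4.98% were, with median differences of 0.56 in bulk_6883c1 and 0.49 in bulk_6883c4. Pdcd1, which encodes PD-1, stood at 5.303 CPM in bulk_6883c1 and 6.88 CPM in bulk_6883c4, against 0.231 to 5.87 CPM in the high libraries (median 1.39). Btla, a receptor of both B and T cells, stood at 3.82 CPM in bulk_6883c1 and 36.1 CPM in bulk_6883c4, against 0.555 to 4.11 CPM in the high libraries (median 1.19) and was past the range in bulk_6883c4 alone. Ctla4, Lag3, Havcr2 and Tigit, further inhibitory receptors of T cells, lay inside the range in both tumours.

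Of 9 regulatory T cell genes, 2 were above in bulk_6883c1, where 9.74% of all genes were, and 1 in bulk_6883c4, where 4.98% were. Their medians were 0.96 in bulk_6883c1 and 1.01 in bulk_6883c4. Foxp3, the factor that defines these cells, was at 7.53 CPM in bulk_6883c1 and 5.33 CPM in bulk_6883c4 and inside the high range of 0.479 to 9.92 CPM. Il2ra, the alpha chain of the interleukin 2 receptor, stood at 9.91 CPM in bulk_6883c1 and 5.62 CPM in bulk_6883c4, against 0.624 to 6.498 CPM in the high libraries (median 1.697). Tnfrsf4, the co-stimulatory receptor OX40, stood at 8.15 CPM in bulk_6883c1 and 4.42 CPM in bulk_6883c4, against 1.04 to 7.75 CPM in the high libraries (median 2.405). Both genes were past the range in bulk_6883c1 and not in bulk_6883c4. Ikzf4, a transcription factor of regulatory T cells, stood at 3.698 CPM in bulk_6883c1 and 5.98 CPM in bulk_6883c4, against 1.25 to 5.297 CPM in the high libraries (median 3.04) and was past it in bulk_6883c4 alone.

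Of 15 NK cell genes that passed the filter, of 20 listed, 5 were above the range in bulk_6883c1 and 5 in bulk_6883c4, with medians of 1.33 in bulk_6883c1 and 0.67 in bulk_6883c4. The shares above over all genes were 9.74% and 4.98%. Il2rb, a chain of the receptors for interleukins 2 and 15, stood at 22.7 CPM in bulk_6883c1 and 21.5 CPM in bulk_6883c4, against 1.01 to 11.7 CPM in the high libraries (median 1.75). Klrk1, the activating receptor NKG2D, stood at 6.92 CPM in bulk_6883c1 and 4.47 CPM in bulk_6883c4, against 0.177 to 3.098 CPM in the high libraries (median 0.783). Klrd1, which pairs with NKG2 receptors, stood at 3.17 CPM in bulk_6883c1 and 5.79 CPM in bulk_6883c4, against 0.184 to 1.704 CPM in the high libraries (median 0.602). All 3 genes are also used by CD8 T cells. Klrc1, an inhibitory partner of Klrd1, was at 1.39 and 1.72 CPM and within the range of 0.551 to 16.5 CPM.

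By the median, B cell genes were the list in which bulk_6883c4 stood farthest from the high tumours. Of 17 B cell genes that passed the filter, of 23 in the table, 15 were above all high libraries in bulk_6883c4 and 3 in bulk_6883c1, and none was below. Over all genes, 4.98% were above in bulk_6883c4 and 9.74% in bulk_6883c1. The list had a median difference of 1.17 in bulk_6883c1 and 4.77 in bulk_6883c4, and 12 of the 17 were at least 4-fold lower in bulk_6883c1 than in bulk_6883c4, where 6.42% of all genes were. Summed over the list, the level was 389.7 CPM in bulk_6883c1 and 899.6 CPM in bulk_6883c4, against 56.7 to 175 CPM in the high libraries (median 116).

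Fcer2a, the low-affinity IgE receptor CD23 of mature B cells, stood at 0.553 CPM in bulk_6883c1 and 27.7 CPM in bulk_6883c4, against 0 to 1.195 CPM in the high libraries (median 0.301). Faim3, a receptor for IgM, stood at 0.7795 CPM in bulk_6883c1 and 29.8 CPM in bulk_6883c4, against 0.0344 to 0.8298 CPM in the high libraries (median 0.352). For both genes bulk_6883c4 was more than 10 times the highest high library, and bulk_6883c1 was inside the range.

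Ms4a1, which encodes CD20, Cr2, the complement receptor of follicular cells, and Pax5, the factor that fixes B cell identity, did not pass the filter, since fewer than 4 of the 17 libraries reached 0.5 CPM. Ms4a1 stood at 0.573 CPM in bulk_6883c1 and 36.2 CPM in bulk_6883c4, against 0 to 0.797 CPM in the high libraries (median 0.138). Cr2 stood at 0.366 CPM in bulk_6883c1 and 26.5 CPM in bulk_6883c4, against 0.0231 to 0.764 CPM in the high libraries (median 0.137). Pax5 stood at 0.253 CPM in bulk_6883c1 and 7.68 CPM in bulk_6883c4, against 0.0242 to 0.664 CPM in the high libraries (median 0.225). For these genes too bulk_6883c4 was above and bulk_6883c1 within the range of the high libraries.

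Some immunoglobulin genes were above the range in both bulk_6883 tumours. Ighm, the heavy chain of IgM, stood at 194 CPM in bulk_6883c1 and 176 CPM in bulk_6883c4, against 4.67 to 57.5 CPM in the high libraries (median 15.8). Igkc, the kappa light chain, stood at 126 CPM in bulk_6883c1 and 222 CPM in bulk_6883c4, against 3.48 to 105 CPM in the high libraries (median 26.2). Of the B cell genes that passed the filter, these 2 and the lambda chain Iglc2 are the ones above the range in bulk_6883c1, and Fcrla, an Fc receptor-like protein of B cells that did not pass it, was above it too.

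Of 14 plasma cell genes that passed the filter, 4 were above and 1 below in bulk_6883c1, and 6 above and 1 below in bulk_6883c4, with medians of 1.62 in bulk_6883c1 and 2.50 in bulk_6883c4. Over all genes, 9.74% were above and 8.67% below in bulk_6883c1, and 4.98% and 1.90% in bulk_6883c4. Ighg2c, an IgG heavy chain, stood at 41.9 CPM in bulk_6883c1 and 116 CPM in bulk_6883c4, against 0 to 9.65 CPM in the high libraries (median 0.939). Ighg2b, another one, stood at 20.3 CPM in bulk_6883c1 and 41.96 CPM in bulk_6883c4, against 0 to 13.9 CPM in the high libraries (median 0.789). Other immunoglobulin genes of the list were inside the range in at least 1 tumour. Ighg1, a further IgG heavy chain, stood at 12.5 CPM in bulk_6883c1 and 117 CPM in bulk_6883c4, against 0.0548 to 156 CPM in the high libraries (median 20.8), and it was inside the range in both tumours, as was Igha, the heavy chain of IgA. Ighg3 and the lambda segment Iglv1 were inside it in bulk_6883c1 and above it in bulk_6883c4. Of the list, 8 genes were at least 4-fold higher in labelled libraries with liver and heart transcripts than in those without. For Ighg2c the difference was 2.75 in bulk_6883c1 and 4.21 in bulk_6883c4 against the high libraries with these transcripts, and 7.70 and 9.16 against those without. Mzb1, a chaperone of antibody secretion, stood at 0.706 CPM in bulk_6883c1 and 4.901 CPM in bulk_6883c4, against 0.0540005 to 0.691 CPM in the high libraries (median 0.166). Sdc1, which plasma cells share with epithelium, stood at 236 CPM in bulk_6883c1 and 290.3 CPM in bulk_6883c4, against 387 to 1098 CPM in the high libraries (median 608), below the range in both tumours. Immunoglobulin genes are near-copies of each other, so reads may be split among them.

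Genes of lymph node and follicle were checked because B and T cells are dense there. Of 15 that passed the filter, of 20 listed, 3 were above and 3 below in bulk_6883c1, and 6 above with 0 below in bulk_6883c4. Over all genes, 9.74% were above and 8.67% below in bulk_6883c1, and 4.98% and 1.90% in bulk_6883c4. Ccl21a, a chemokine of lymph node stroma, was at 0 in all 17 libraries. No label says how reads matching several genes were counted, so its absence is not read from this. Glycam1, a mucin-like protein of the high endothelial venules of lymph nodes, did not pass the filter and stood at 0.0466 CPM in bulk_6883c1 and 14.04 CPM in bulk_6883c4, against 0 to 0.288 CPM in the high libraries (median 0.0704). Ltb, lymphotoxin beta, stood at 8.83 CPM in bulk_6883c1 and 26.1 CPM in bulk_6883c4, against 1.097 to 11.1 CPM in the high libraries (median 3.75). Madcam1, an adhesion molecule of mucosal venules, was at 0.03998 and 0.171 CPM, close to the 0 to 0.141 CPM of the high libraries. Glycam1 and Ltb were therefore high in the same library as the B cell genes, and the part of lymph node tissue in the B cell values was not tested.

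MHC class II genes of B cells were high in the same tumour. Of 11 genes, 1 was above the range in bulk_6883c1, where 9.74% of all genes were, and 4 in bulk_6883c4, where 4.98% were. The count in bulk_6883c1 was near the share over all genes. Medians of the list were 1.19 in bulk_6883c1 and 1.23 in bulk_6883c4. H2-Ob, a subunit of the peptide-editing inhibitor H2-O of B cells, stood at 2.77 CPM in bulk_6883c1 and 36.1 CPM in bulk_6883c4, against 0.416 to 3.33 CPM in the high libraries (median 1.15). H2-Oa stood at 1.27 CPM in bulk_6883c1 and 7.86 CPM in bulk_6883c4, against 0.197 to 1.55 CPM in the high libraries (median 0.486). H2-Aa, which encodes the alpha chain of the class II molecule I-A on all antigen-presenting cells, was at 426 and 413 CPM and within the high range of 71.4 to 545 CPM.

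**Figure D4:**
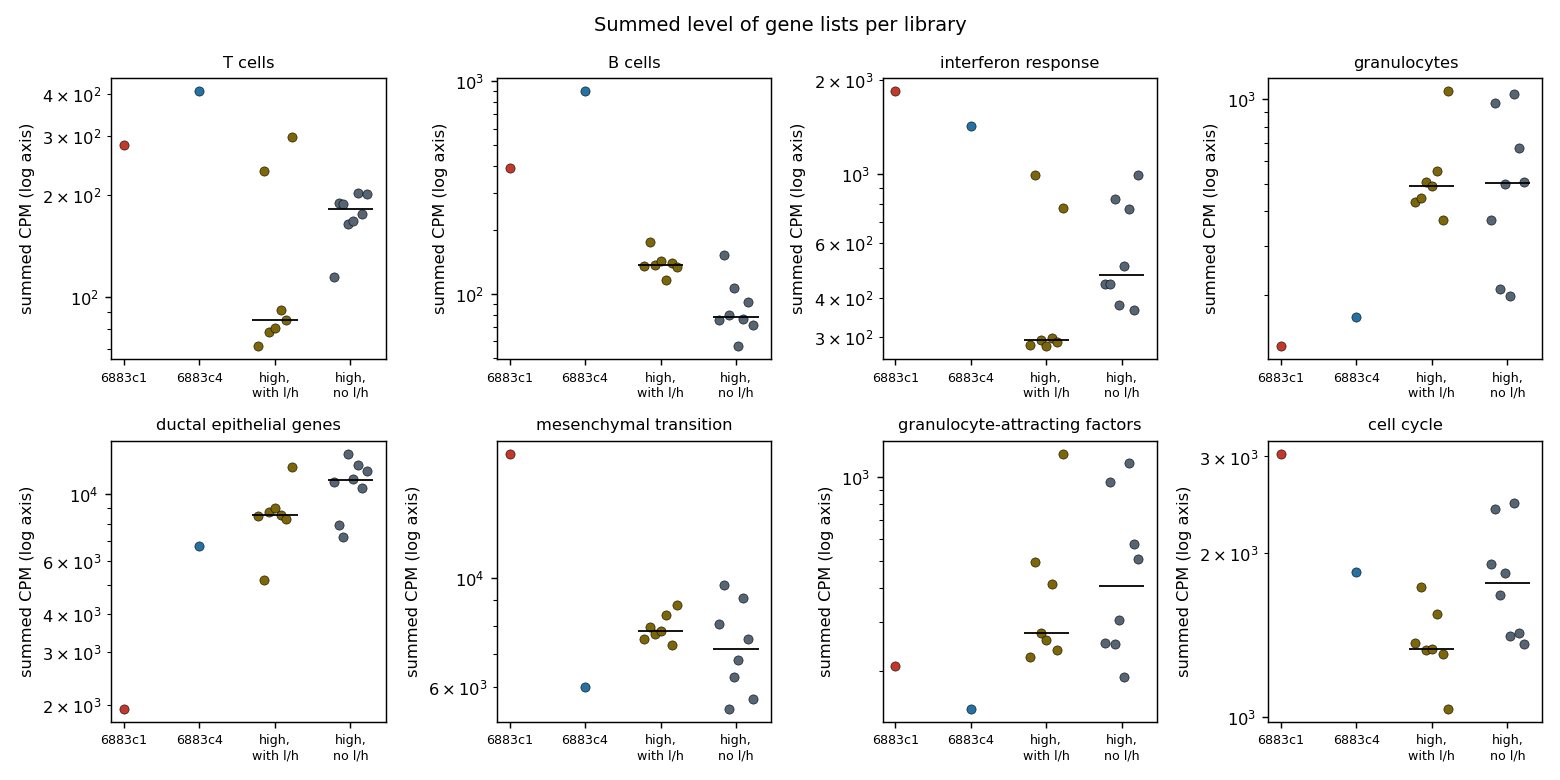
Summed CPM of 8 gene lists in bulk_6883c1, in bulk_6883c4 and in the high libraries with and without liver and heart transcripts, on log axes, each point 1 library and each bar a median. B cell genes set bulk_6883c4 apart, ductal and mesenchymal genes set bulk_6883c1 apart, and interferon genes are above and granulocyte genes below all high libraries in both tumours.

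Genes of the interferon response were above the high tumours in both, and more of them in bulk_6883c1. Of 25 genes, 21 were above all high libraries in bulk_6883c1 and 13 in bulk_6883c4, and none was below. The median difference was 2.34 in bulk_6883c1 and 1.80 in bulk_6883c4. The shares above over all genes were 9.74% and 4.98%. Summed over the list, the level was 1839.7 CPM in bulk_6883c1 and 1426 CPM in bulk_6883c4, against 281 to 993 CPM in the high libraries (median 443), so both tumours exceeded the highest high library. Ifit1 and Ifit3 encode proteins that bind viral RNA or its sensors and are among the genes most strongly induced by type I interferon.

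Ifit1 stood at 90.5 CPM in bulk_6883c1 and 32.9 CPM in bulk_6883c4, against 1.39 to 25.1 CPM in the high libraries (median 4.23), with differences of 4.04 and 2.58 (SD 1.08). Ifit3 stood at 62.3 CPM in bulk_6883c1 and 24.6 CPM in bulk_6883c4, against 1.57 to 18.5 CPM in the high libraries (median 3.695). Irf7, a factor that amplifies interferon output, stood at 133 CPM in bulk_6883c1 and 85.6 CPM in bulk_6883c4, against 6.27 to 69.8 CPM in the high libraries (median 14.4). Both Ifit genes and Irf7 were above the range in both tumours. Gbp2 and Iigp1 are GTPases of cell defence that interferon gamma induces. Gbp2 stood at 165 CPM in bulk_6883c1 and 209.7 CPM in bulk_6883c4, against 9.85 to 107 CPM in the high libraries (median 29.6). Iigp1 stood at 96.7 CPM in bulk_6883c1 and 100.2 CPM in bulk_6883c4, against 5.12 to 70.5 CPM in the high libraries (median 22.3). For the Ifit genes bulk_6883c1 was higher than bulk_6883c4, while for Gbp2 bulk_6883c4 was the higher one.

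The 250 bases before the gene start of Ifit1 and Ifit3 are shown because these genes are described above and hold the letters of the interferon-stimulated response element. The search was for GAAANNGAAA on both strands, TTTCNNTTTC being its reverse, and matches are in capitals. The sequences are from RefSeq (GRCm38.p6), at chr19:34640639-34640888 and chr19:34583279-34583528, both on the plus strand.
Ifit1: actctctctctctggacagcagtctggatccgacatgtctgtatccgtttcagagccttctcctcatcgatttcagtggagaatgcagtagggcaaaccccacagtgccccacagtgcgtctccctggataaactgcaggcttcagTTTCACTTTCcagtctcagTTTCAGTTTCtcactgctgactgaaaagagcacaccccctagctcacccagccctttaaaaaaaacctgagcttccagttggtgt
Ifit3: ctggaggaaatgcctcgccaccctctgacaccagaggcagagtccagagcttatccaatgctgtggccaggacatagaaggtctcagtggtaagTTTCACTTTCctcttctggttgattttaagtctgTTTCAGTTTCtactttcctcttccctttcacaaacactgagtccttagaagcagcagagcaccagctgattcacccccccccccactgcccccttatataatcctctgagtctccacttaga

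Each of these windows held 2 matches. Of the 25 list genes, 17 had a promoter in the RefSeq table, and 10 of the 17 held the motif, which is 58.8%. Among all 27025 genes with a promoter in it, 936 did, 3.46%. Of the 17, the 15 above the range in bulk_6883c1 included all 10, and neither of the other 2 held it. A match describes letters in this window and is neither a bound site nor a cause.

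MHC class I presentation genes were above the range for 9 of 15 genes in bulk_6883c1 and 2 in bulk_6883c4, with medians of 1.58 in bulk_6883c1 and 1.09 in bulk_6883c4. The shares above over all genes were 9.74% and 4.98%. B2m, the invariant light chain of class I molecules, stood at 1947 CPM in bulk_6883c1 and 1012 CPM in bulk_6883c4, against 255 to 1906 CPM in the high libraries (median 334). Tap1, which pumps peptides to these molecules, stood at 121 CPM in bulk_6883c1 and 90.1 CPM in bulk_6883c4, against 11.5 to 79.5 CPM in the high libraries (median 29.9). Nlrc5, the activator of class I genes, stood at 83.9 CPM in bulk_6883c1 and 57.1 CPM in bulk_6883c4, against 5.89 to 63.7 CPM in the high libraries (median 14.6). Tap1 was past the range in both tumours, while B2m and Nlrc5 were past it in bulk_6883c1 alone.

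Granulocyte genes and the factors that attract granulocytes were low in both. Of 16 granulocyte genes that passed the filter, of 22 listed, 6 were below all high libraries in bulk_6883c1, where 8.67% of all genes were, and 4 in bulk_6883c4, where 1.90% were, and none was above. Their median difference was -1.71 in bulk_6883c1 and -1.02 in bulk_6883c4. The summed level was 131 CPM in bulk_6883c1 and 167 CPM in bulk_6883c4, against 198 to 1070.4 CPM in the high libraries (median 499.6), with both bulk_6883 tumours below the lowest high library.

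S100a9, the partner of S100a8, stood at 5.05 CPM in bulk_6883c1 and 12.5 CPM in bulk_6883c4, against 11.3 to 246 CPM in the high libraries (median 44.6), below the range in bulk_6883c1. Cxcr2, the receptor that guides granulocytes, stood at 1.36 CPM in bulk_6883c1 and 4.06 CPM in bulk_6883c4, against 4.28 to 25.1 CPM in the high libraries (median 7.94), and both tumours were below the range. Il1b, the cytokine interleukin 1 beta, stood at 17.97 CPM in bulk_6883c1 and 28.1 CPM in bulk_6883c4, against 51.3 to 574 CPM in the high libraries (median 129), with differences of -2.81 and -2.17 (SD 0.79). Ly6g, the surface marker of mouse granulocytes, was at 0.0267 and 0.427 CPM, against 0 to 1.72 CPM, and did not pass the filter.

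Of 13 granulocyte-attracting factors, 7 were below and 1 above in bulk_6883c1, and 4 were below with none above in bulk_6883c4, with medians of -2.10 in bulk_6883c1 and -1.46 in bulk_6883c4. Over all genes, 8.67% were below and 9.74% above in bulk_6883c1, and 1.90% and 4.98% in bulk_6883c4. Cxcl2, a CXCR2 ligand, stood at 5.104 CPM in bulk_6883c1 and 9.94 CPM in bulk_6883c4, against 24.5 to 356 CPM in the high libraries (median 60.7), with differences of -3.87 and -2.92 (SD 0.87). Cxcl5, another ligand, stood at 7.78 CPM in bulk_6883c1 and 18.6 CPM in bulk_6883c4, against 26.2 to 113 CPM in the high libraries (median 36.9). Il1a, interleukin 1 alpha, stood at 2.11 CPM in bulk_6883c1 and 2.49 CPM in bulk_6883c4, against 7.25 to 74.001 CPM in the high libraries (median 13.4). All 3 genes were below all high libraries in both tumours. Cxcl1 did not share this and was at 4.204 and 4.901 CPM, within the range of 1.19 to 38.7 CPM. Csf1, the growth factor of macrophages in the same list, was the gene above the range in bulk_6883c1, at 160.4 CPM in bulk_6883c1 and 60.8 CPM in bulk_6883c4, against 35.7 to 93.1 CPM in the high libraries (median 50.6).

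More macrophage and monocyte genes left the range in bulk_6883c1 than in bulk_6883c4, though none of 20 was 4-fold apart between the tumours. Over all genes, 1.43% were 4-fold higher and 6.42% 4-fold lower in bulk_6883c1 than in bulk_6883c4. Of the 20 macrophage and monocyte genes, 7 were above and 1 below in bulk_6883c1, and 1 above and 1 below in bulk_6883c4. Their medians were 0.98 in bulk_6883c1 and -0.05 in bulk_6883c4. Over all genes, 9.74% were above and 8.67% below in bulk_6883c1, and 4.98% and 1.90% in bulk_6883c4. Ly6c2, a marker of inflammatory monocytes, stood at 19.7 CPM in bulk_6883c1 and 7.51 CPM in bulk_6883c4, against 0.3098 to 2.599 CPM in the high libraries (median 0.971). It was past the range in both tumours. Ccr2, the receptor by which monocytes leave the marrow, stood at 182 CPM in bulk_6883c1 and 63.6 CPM in bulk_6883c4, against 11.4 to 94.4 CPM in the high libraries (median 33.8). Fcgr1, an IgG receptor, stood at 59.6 CPM in bulk_6883c1 and 20.3 CPM in bulk_6883c4, against 8.03 to 40.2 CPM in the high libraries (median 17.1). Ccr2 and Fcgr1 were past the range in bulk_6883c1 alone. Cd14, a co-receptor for bacterial lipid, stood at 77.5 CPM in bulk_6883c1 and 79.9 CPM in bulk_6883c4, against 131 to 358 CPM in the high libraries (median 196) and was below the range in both. Ly6c2 has close relatives in its cluster, so its reads may be shared.

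Retnla, a resistin-like protein of alternatively activated macrophages, had 1 of the largest differences shared by both tumours. It stood at 80.9 CPM in bulk_6883c1 and 69.9 CPM in bulk_6883c4, against 0.826 to 26.5 CPM in the high libraries (median 2.62), with differences of 4.68 and 4.47 (SD 0.51). Pydc3 and Pydc4 are interferon-inducible proteins with a pyrin domain. Pydc3 stood at 10.6 CPM in bulk_6883c1 and 8.81 CPM in bulk_6883c4, against 0.0461 to 0.978 CPM in the high libraries (median 0.351). Pydc4 stood at 19.8 CPM in bulk_6883c1 and 16.9 CPM in bulk_6883c4, against 0.277 to 6.93 CPM in the high libraries (median 0.955). Ms4a4b and Prlr shared this direction. Ms4a4b, a membrane protein of T cells, stood at 10.4 CPM in bulk_6883c1 and 21.8 CPM in bulk_6883c4, against 0.319 to 4.48 CPM in the high libraries (median 0.585). Prlr, the prolactin receptor, stood at 21.7 CPM in bulk_6883c1 and 29.6 CPM in bulk_6883c4, against 0 to 7.698 CPM in the high libraries (median 0.958). These 5 genes were picked from the 436, 2.59% of all genes, that lay above every high library in both tumours.

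Mast cell proteases were split, with Cpa3, Cma1 and Tpsb2 above the range in both tumours and Mcpt1, Mcpt2 and Mcpt4 inside it in both. Of 12 mast cell and eosinophil genes that passed the filter, 5 were above in bulk_6883c1 and 4 in bulk_6883c4, with none below, and the medians were 0.88 in bulk_6883c1 and 0.94 in bulk_6883c4. The shares above over all genes were 9.74% and 4.98%. Cpa3, carboxypeptidase A of mast cells, stood at 27.3 CPM in bulk_6883c1 and 50.6 CPM in bulk_6883c4, against 1.35 to 9.59 CPM in the high libraries (median 2.996). Cma1, a chymase, stood at 25.5 CPM in bulk_6883c1 and 43.97 CPM in bulk_6883c4, against 1.76 to 13.6 CPM in the high libraries (median 4.95). Tpsb2, a tryptase, stood at 41.6 CPM in bulk_6883c1 and 64.2 CPM in bulk_6883c4, against 2.29 to 26.9 CPM in the high libraries (median 7.01). Mcpt4, another chymase, stood at 22.1 CPM in bulk_6883c1 and 39.7 CPM in bulk_6883c4, against 2.75 to 74.05 CPM in the high libraries (median 10.5). Mcpt8, a protease of basophils, stood at 0.167 CPM in bulk_6883c1 and 2.07 CPM in bulk_6883c4, against 0.516 to 66.5 CPM in the high libraries (median 25.9), below the range in bulk_6883c1.

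Of 11 genes of cDC1, the dendritic cells that cross-present antigen, 1 was above in bulk_6883c1 and 4 were above with 1 below in bulk_6883c4, with medians of 0.84 in bulk_6883c1 and 1.05 in bulk_6883c4. Xcr1, the chemokine receptor of these cells, stood at 2.43 CPM in bulk_6883c1 and 3.72 CPM in bulk_6883c4, against 0.09605 to 2.03 CPM in the high libraries (median 0.351). Flt3, a growth factor receptor of dendritic cells, stood at 4.95 CPM in bulk_6883c1 and 8.15 CPM in bulk_6883c4, against 0.7204 to 6.24 CPM in the high libraries (median 2.08). Wdfy4, a protein needed for cross-presentation, stood at 53.9 CPM in bulk_6883c1 and 67.2 CPM in bulk_6883c4, against 9.55 to 54.7 CPM in the high libraries (median 17.001). Of 10 genes of mature dendritic cells, 1 was above and 1 below in each tumour. Beside both lists, the shares over all genes were 9.74% above and 8.67% below in bulk_6883c1, and 4.98% and 1.90% in bulk_6883c4. Il12b, a subunit of interleukins 12 and 23, stood at 1.96 CPM in bulk_6883c1 and 1.43 CPM in bulk_6883c4, against 0 to 0.694 CPM in the high libraries (median 0.242). Ccl17, a ligand of CCR4, stood at 10.9 CPM in bulk_6883c1 and 2.94 CPM in bulk_6883c4, against 4.03 to 40.2 CPM in the high libraries (median 6.56). Socs2, an inhibitor of cytokine signals, stood at 25.4 CPM in bulk_6883c1 and 45.3 CPM in bulk_6883c4, against 27.97 to 127 CPM in the high libraries (median 63.6). Il12b was the gene above the range in both tumours, while Socs2 was below it in bulk_6883c1 and Ccl17 in bulk_6883c4.

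The ductal epithelial program was low in bulk_6883c1 and mostly within the high range in bulk_6883c4. Of 28 genes, 17 were below all high libraries in bulk_6883c1, where 8.67% of all genes were, and 2 in bulk_6883c4, where 1.90% were. None was above in bulk_6883c1 and 2 were above in bulk_6883c4, where 9.74% and 4.98% of all genes were. The list had a median difference of -2.68 in bulk_6883c1 and -0.17 in bulk_6883c4. At least 4-fold lower in bulk_6883c1 than in bulk_6883c4 were 18 genes, as were 6.42% of all genes. Summed over the list, the level was 1944 CPM in bulk_6883c1 and 6745 CPM in bulk_6883c4, against 5187 to 13618 CPM in the high libraries (median 8994).

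Krt7, a keratin of ducts, stood at 37.3 CPM in bulk_6883c1 and 548 CPM in bulk_6883c4, against 475 to 2412 CPM in the high libraries (median 1265), with differences of -4.95 and -1.07 (SD 0.52). Muc1, a membrane mucin, stood at 7.49 CPM in bulk_6883c1 and 115 CPM in bulk_6883c4, against 174 to 571 CPM in the high libraries (median 271), below the range in both tumours. Elf3, an epithelial transcription factor, stood at 3.27 CPM in bulk_6883c1 and 84.4 CPM in bulk_6883c4, against 64.6 to 270.2 CPM in the high libraries (median 152). Muc1 was thus the 1 of these 3 genes past the range in bulk_6883c4. Cdh1, the junction protein E-cadherin, stood at 58.03 CPM in bulk_6883c1 and 258 CPM in bulk_6883c4, against 417 to 1189.7 CPM in the high libraries (median 708). Epcam, an epithelial adhesion molecule, stood at 7.65 CPM in bulk_6883c1 and 162 CPM in bulk_6883c4, against 11.7 to 851 CPM in the high libraries (median 154). In each of these genes bulk_6883c1 was the lowest of the 17 libraries. Sox9, a factor of ductal progenitors, did not follow, at 106 and 79.8 CPM and within 19.8 to 206 CPM.

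The 250 bases before the gene start of Krt7 and Muc1 are shown because they are keratin and mucin genes with large deficits in bulk_6883c1 and hold the letters CAGGTG, the E-box to which Zeb and Snail factors bind. CACCTG is the reverse, and matches are in capitals. The sequences are from RefSeq (GRCm38.p6), at chr15:101412153-101412402 and chr3:89228806-89229055, both on the plus strand. The Krt7 window precedes the RefSeq start and lies inside the gene as GENCODE M21 places it, chr15:101411043-101430313.
Krt7: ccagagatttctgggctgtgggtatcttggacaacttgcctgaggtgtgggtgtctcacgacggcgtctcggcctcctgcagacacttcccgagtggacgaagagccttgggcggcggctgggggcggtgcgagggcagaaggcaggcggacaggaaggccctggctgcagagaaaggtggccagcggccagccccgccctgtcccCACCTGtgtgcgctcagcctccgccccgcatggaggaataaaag
Muc1: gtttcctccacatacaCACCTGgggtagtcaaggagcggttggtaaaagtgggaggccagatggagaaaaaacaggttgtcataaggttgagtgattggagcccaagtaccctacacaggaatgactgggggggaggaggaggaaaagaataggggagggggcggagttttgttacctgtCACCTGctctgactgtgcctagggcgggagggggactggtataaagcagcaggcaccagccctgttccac

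Krt7 held 1 match and Muc1 held 2. Of the 28 ductal genes, 16 had a promoter in the table and 10 held the motif, 62.5%, against 5252 of all 27025 genes, 19.4%. Of the 11 with a promoter that were below the range in bulk_6883c1, 8 held it, and of the other 5, 2 did. These matches too are letters in a window, from which nothing follows about any factor.

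Mucins and genes of stomach and intestine showed the same contrast, with 16 of 27 below the range in bulk_6883c1 and 4 in bulk_6883c4, none above in bulk_6883c1 and 2 above in bulk_6883c4. The median difference was -3.62 in bulk_6883c1 and -0.36 in bulk_6883c4, and 21 genes were at least 4-fold lower in bulk_6883c1 than in bulk_6883c4. Over all genes, 8.67% were below in bulk_6883c1, and 1.90% were below and 4.98% above in bulk_6883c4. At least 4-fold lower in bulk_6883c1 were 6.42% of all genes. Anxa10, an annexin of gastric epithelium, stood at 0.526 CPM in bulk_6883c1 and 8.64 CPM in bulk_6883c4, against 27.4 to 119 CPM in the high libraries (median 56.98). Ctse, the gastric protease cathepsin E, stood at 11.999 CPM in bulk_6883c1 and 86.6 CPM in bulk_6883c4, against 426 to 1367 CPM in the high libraries (median 754). Both genes were below all high libraries in both tumours. Vil1, the brush border protein villin, stood at 1.43 CPM in bulk_6883c1 and 51.4 CPM in bulk_6883c4, against 21.4 to 263 CPM in the high libraries (median 106). Hnf4a, a transcription factor of gut and liver epithelium, stood at 14.98 CPM in bulk_6883c1 and 186 CPM in bulk_6883c4, against 134 to 365 CPM in the high libraries (median 276). Vil1 and Hnf4a were below the range in bulk_6883c1 alone.

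Further genes below the range in both tumours were Cym, the milk-clotting stomach protease chymosin, Mal, a protein of apical membrane transport, Nt5e, the enzyme CD73 that makes adenosine, Niacr1, a receptor for niacin, and G0s2, an inhibitor of fat breakdown. Cym stood at 0.03998 CPM in bulk_6883c1 and 0.324 CPM in bulk_6883c4, against 0.726 to 76.1 CPM in the high libraries (median 2.59). Mal stood at 2.03 CPM in bulk_6883c1 and 15.1 CPM in bulk_6883c4, against 34.5 to 238 CPM in the high libraries (median 82.4). Nt5e stood at 29.9 CPM in bulk_6883c1 and 16.8 CPM in bulk_6883c4, against 61.9 to 227 CPM in the high libraries (median 88.97). Each of these was below every high library in both tumours, and so were the next ones. Niacr1 stood at 2.399 CPM in bulk_6883c1 and 3.296 CPM in bulk_6883c4, against 7.07 to 117 CPM in the high libraries (median 18.8). G0s2 stood at 1.26 CPM in bulk_6883c1 and 2.87 CPM in bulk_6883c4, against 4.27 to 115 CPM in the high libraries (median 15.2). Of these, Nt5e was the one that was lower in bulk_6883c4 than in bulk_6883c1.

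Genes far below the high clones in bulk_6883c1 alone included Sptssb, a subunit of the enzyme that starts sphingolipid synthesis, Kif12, a kinesin, Gpx2, a glutathione peroxidase of gut epithelium, and Aadac, an esterase. Sptssb stood at 0.3398 CPM in bulk_6883c1 and 45.1 CPM in bulk_6883c4, against 14.98 to 172 CPM in the high libraries (median 33.6). Kif12 stood at 0.173 CPM in bulk_6883c1 and 19.2 CPM in bulk_6883c4, against 2.82 to 73.5 CPM in the high libraries (median 27.2). Both were within the high range in bulk_6883c4, as were the next genes. Gpx2 stood at 0.1599 CPM in bulk_6883c1 and 21.9 CPM in bulk_6883c4, against 2.84 to 81.8 CPM in the high libraries (median 11.5). Aadac stood at 0.1199 CPM in bulk_6883c1 and 1.66 CPM in bulk_6883c4, against 1.095 to 35.3 CPM in the high libraries (median 12.3). St8sia3, a sialyltransferase, and Asz1, a germ cell gene, were also below the range in bulk_6883c1, at 0.1199 and 0 CPM, against lowest high values of 0.5399 and 0.0939 CPM.

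Keratins of stratified epithelium and skin genes are the check for skin in these subcutaneous tumours. Of 10 such keratins and partner genes that passed the filter, of 19 listed, 5 were below in bulk_6883c1 and 1 was above in bulk_6883c4, with medians of -2.11 in bulk_6883c1 and -0.69 in bulk_6883c4. Over all genes, 8.67% were below in bulk_6883c1 and 4.98% above in bulk_6883c4. S100a14, an epithelial calcium-binding protein, stood at 0.5797 CPM in bulk_6883c1 and 6.03 CPM in bulk_6883c4, against 3.92 to 201 CPM in the high libraries (median 25.3). Krt23, a keratin, stood at 1.73 CPM in bulk_6883c1 and 38.1 CPM in bulk_6883c4, against 13.04 to 125 CPM in the high libraries (median 56.5). Perp, a desmosome protein, stood at 4.24 CPM in bulk_6883c1 and 53.02 CPM in bulk_6883c4, against 60.5 to 147 CPM in the high libraries (median 108). Of 5 skin and hair genes that passed the filter, of 18 listed, 3 were below in bulk_6883c1 and 0 in bulk_6883c4. The genes below in bulk_6883c1 were Krt79, Dmkn and Sbsn. Krt79, a keratin of hair follicles and sebaceous ducts, stood at 0.693 CPM in bulk_6883c1 and 2.25 CPM in bulk_6883c4, against 2.19 to 48.7 CPM in the high libraries (median 6.88). Dmkn, dermokine, stood at 0.653 CPM in bulk_6883c1 and 4.18 CPM in bulk_6883c4, against 0.845 to 26.8 CPM in the high libraries (median 4.104). Sbsn, suprabasin, stood at 2.82 CPM in bulk_6883c1 and 8.13 CPM in bulk_6883c4, against 3.78 to 13.2 CPM in the high libraries (median 6.15).

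Mesenchymal genes were the counterpart in bulk_6883c1. Of 19 genes, 11 were above all high libraries and 2 below in bulk_6883c1, and none was called in bulk_6883c4. Their median difference was 1.32 in bulk_6883c1 and -0.01 in bulk_6883c4. Over all genes, 9.74% were above and 8.67% below in bulk_6883c1. Summed over the list, the level was 17786 CPM in bulk_6883c1 and 6018 CPM in bulk_6883c4, against 5426 to 9641 CPM in the high libraries (median 7687), so that bulk_6883c1 exceeded the highest high library.

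Zeb1 and Zeb2 are repressors of epithelial genes. Zeb1 stood at 169 CPM in bulk_6883c1 and 90.3 CPM in bulk_6883c4, against 30.2 to 71.8 CPM in the high libraries (median 51.2). Zeb2 stood at 183 CPM in bulk_6883c1 and 74.8 CPM in bulk_6883c4, against 35.5 to 77.01 CPM in the high libraries (median 48.6). Twist2, a further factor of the transition, stood at 37.5 CPM in bulk_6883c1 and 10.6 CPM in bulk_6883c4, against 2.03 to 10.8 CPM in the high libraries (median 3.33). In bulk_6883c1 these factors were above the highest high library. Zeb1 was above it in bulk_6883c4 too, but less than 2-fold from the mean of the high clones and so not called. Vim, the filament protein vimentin, stood at 5417 CPM in bulk_6883c1 and 2109.9 CPM in bulk_6883c4, against 1292 to 3528 CPM in the high libraries (median 2552). Tgfbi, a matrix protein that TGF-beta induces, stood at 1145 CPM in bulk_6883c1 and 153 CPM in bulk_6883c4, against 85.6 to 355 CPM in the high libraries (median 155). For Tgfbi the difference was 2.90 in bulk_6883c1 and -0.01 in bulk_6883c4 (SD 0.45). Fibroblasts also express most of these genes.

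Fibroblast and matrix genes were split within bulk_6883c1, with 8 above and 3 below of 20, and 2 above with none below in bulk_6883c4, and medians of 0.63 in bulk_6883c1 and 0.12 in bulk_6883c4. Over all genes, 9.74% were above and 8.67% below in bulk_6883c1, and 4.98% and 1.90% in bulk_6883c4. Dpt, dermatopontin, stood at 386 CPM in bulk_6883c1 and 69.9 CPM in bulk_6883c4, against 8.897 to 40.2 CPM in the high libraries (median 20.03), past the range in both, with differences of 4.29 and 1.83 (SD 0.34). Pdgfra and Pdgfrb are receptors for platelet-derived growth factor, on fibroblasts and pericytes. Pdgfra stood at 222 CPM in bulk_6883c1 and 53.7 CPM in bulk_6883c4, against 28.8 to 80.7 CPM in the high libraries (median 40.98). Pdgfrb stood at 348 CPM in bulk_6883c1 and 60.2 CPM in bulk_6883c4, against 54.2 to 135 CPM in the high libraries (median 69.9). Both were above the range in bulk_6883c1 alone. Col6a1, a chain of collagen VI, stood at 1513 CPM in bulk_6883c1 and 385 CPM in bulk_6883c4, against 291 to 874 CPM in the high libraries (median 464). Col1a2, a chain of collagen I, stood at 818 CPM in bulk_6883c1 and 1583 CPM in bulk_6883c4, against 818 to 5394 CPM in the high libraries (median 2066), and bulk_6883c1 was just under the range.

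Most endothelial genes were inside the range, while several genes of smooth muscle and pericytes were below it. Of 12 genes of smooth muscle and pericytes, 5 were below in bulk_6883c1, where 8.67% of all genes were, and 3 in bulk_6883c4, where 1.90% were, and 1 was above in bulk_6883c1, with medians of -0.94 in bulk_6883c1 and -0.39 in bulk_6883c4. Tagln, a protein that binds actin, stood at 14.98 CPM in bulk_6883c1 and 46.9 CPM in bulk_6883c4, against 48.7 to 231 CPM in the high libraries (median 85.8). Actg2, a smooth muscle actin, stood at 0.806 CPM in bulk_6883c1 and 3.24 CPM in bulk_6883c4, against 6.29 to 40.1 CPM in the high libraries (median 7.58). Of 16 endothelial genes, 1 was above and 1 below in bulk_6883c1 and none was called in bulk_6883c4, counts no larger a share than those over all genes. The one above was Lyve1, a receptor of lymphatic vessels and some macrophages, at 51.01 CPM in bulk_6883c1 and 27.6 CPM in bulk_6883c4, against 2.08 to 34.2 CPM in the high libraries (median 24.8). The one below was Esam, a junction protein, at 11.98 CPM in bulk_6883c1 and 19.3 CPM in bulk_6883c4, against 16.4 to 34.7 CPM in the high libraries (median 27.02).

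Genes in none of the lists that were far above the high clones in bulk_6883c1 included Pax6, Isl1, Dlx1 and Dlx2. Pax6, a factor of eye, brain and islet development, stood at 20.6 CPM in bulk_6883c1 and 1.59 CPM in bulk_6883c4, against 0 to 2.31 CPM in the high libraries (median 0.189), with a difference of 6.52 in bulk_6883c1 (SD 1.74). Isl1, a factor of motor neurons and islets, stood at 15.02 CPM in bulk_6883c1 and 0.598 CPM in bulk_6883c4, against 0 to 5.14 CPM in the high libraries (median 0.103). Dlx1 and Dlx2 are homeobox factors of forebrain interneurons. Dlx1 stood at 19.7 CPM in bulk_6883c1 and 6.66 CPM in bulk_6883c4, against 0 to 11.1 CPM in the high libraries (median 0.3198). Dlx2 stood at 22.9 CPM in bulk_6883c1 and 4.15 CPM in bulk_6883c4, against 0 to 7.998 CPM in the high libraries (median 0.3198). All 4 genes were above every high library in bulk_6883c1, and bulk_6883c4 was within the range for each. They were named for their differences alone, so no theme is drawn from them.

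Slitrk5, a neuronal membrane protein, stood at 15.6 CPM in bulk_6883c1 and 2.698 CPM in bulk_6883c4, against 0 to 3.47 CPM in the high libraries (median 0.28997). Slitrk5 was past the range in bulk_6883c1 alone. Syt13, a member of the synaptotagmin family, stood at 215 CPM in bulk_6883c1 and 3.52 CPM in bulk_6883c4, against 0.413 to 21.3 CPM in the high libraries (median 3.79). Adamtsl3, a matrix protein, stood at 164 CPM in bulk_6883c1 and 6.03 CPM in bulk_6883c4, against 0.621 to 20.8 CPM in the high libraries (median 3.06). For Syt13 bulk_6883c1 was about 10 times the highest high library, and bulk_6883c4 was close to the median of the high libraries.

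The acinar and islet list was looked at for normal pancreas. Of 20 such genes 3 passed the filter, and none was called in either tumour. A gene present in the bulk_6883 libraries alone cannot pass the filter, so the calls cannot show that normal pancreas was absent. Summed over all 20, the level was 65.1 CPM in bulk_6883c1 and 75.1 CPM in bulk_6883c4, against 28.9 to 114 CPM in the high libraries (median 53.3). Pdx1, the factor that starts pancreas development, was at 41.7 CPM in bulk_6883c1 and 37.9 CPM in bulk_6883c4, within the high range of 7.32 to 53.5 CPM.

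Between the bulk_6883 tumours, 241 genes were at least 4-fold higher in bulk_6883c1 than in bulk_6883c4, 1.43% of all genes, and 1080 were at least 4-fold lower, 6.42%. Mme, the peptidase neprilysin, was at 85.9 CPM in bulk_6883c1 and 3.38 CPM in bulk_6883c4, against 0.399 to 4.601 CPM in the high libraries. Pou3f2, a neural transcription factor, was at 7.402 CPM in bulk_6883c1 and 0.154 CPM in bulk_6883c4, against 0 to 1.497 CPM. Slc6a15, an amino acid transporter of neurons, stood at 12.8 CPM in bulk_6883c1 and 0.171 CPM in bulk_6883c4, against 0 to 11.7 CPM in the high libraries (median 0.137). Fat2, an atypical cadherin, stood at 28.1 CPM in bulk_6883c1 and 1.01 CPM in bulk_6883c4, against 0.0725 to 10.7 CPM in the high libraries (median 0.493). In each of these 4 genes bulk_6883c4 was inside the range of the high libraries and bulk_6883c1 above it.

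Among the largest differences of bulk_6883c4 outside the B cell list were Ush1c and Isx. Ush1c, a scaffold protein of hair cells and intestinal microvilli, stood at 0.0999 CPM in bulk_6883c1 and 38.9 CPM in bulk_6883c4, against 0 to 9.81 CPM in the high libraries (median 0.351). Isx, an intestinal homeobox factor, stood at 0.127 CPM in bulk_6883c1 and 14.04 CPM in bulk_6883c4, against 0 to 3.98 CPM in the high libraries (median 0.0708). Both were above the range in bulk_6883c4 alone. Further genes far lower in bulk_6883c1 than in bulk_6883c4 were Prap1, Ptprh, Tm4sf20, Muc3 and Prom1. Prap1, a secreted protein of the gut, stood at 0.1199 CPM in bulk_6883c1 and 27.9 CPM in bulk_6883c4, against 0.376 to 73.99 CPM in the high libraries (median 3.75). Ptprh, a phosphatase of intestinal epithelium, stood at 0.0533 CPM in bulk_6883c1 and 10.7 CPM in bulk_6883c4, against 0.7204 to 19.1 CPM in the high libraries (median 2.76). Tm4sf20, a membrane protein, stood at 0.4597 CPM in bulk_6883c1 and 53.3 CPM in bulk_6883c4, against 3.304 to 146 CPM in the high libraries (median 14.5). These were below the range in bulk_6883c1 and inside it in bulk_6883c4. Muc3, an intestinal membrane mucin, stood at 0.0999 CPM in bulk_6883c1 and 17.1 CPM in bulk_6883c4, against 0.0235 to 100.4 CPM in the high libraries (median 0.576) and was not called in either. Prom1, the membrane protein CD133, was 100 times higher in bulk_6883c4, at 8.14 CPM in bulk_6883c1 and 815 CPM in bulk_6883c4, against 68.9 to 1283 CPM in the high libraries (median 294).

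A total of 8 genes lay above the range in bulk_6883c1 and below it in bulk_6883c4, and 27 the other way round. Camk1g, a calcium-dependent kinase, stood at 7.82 CPM in bulk_6883c1 and 0.1195 CPM in bulk_6883c4, against 0.266 to 1.39 CPM in the high libraries (median 0.657). Cspg4, the proteoglycan NG2 of pericytes, stood at 128 CPM in bulk_6883c1 and 8.37 CPM in bulk_6883c4, against 8.72 to 40.8 CPM in the high libraries (median 17.3). Ehf, an epithelial transcription factor, was among those of opposite sign and stood at 10.6 CPM in bulk_6883c1 and 222 CPM in bulk_6883c4, against 19.7 to 201 CPM in the high libraries (median 69.1). Spink4, a protease inhibitor of goblet cells, was another, at 0.0933 CPM in bulk_6883c1 and 4.13 CPM in bulk_6883c4, against 0.113 to 3.09 CPM in the high libraries (median 1.01).

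Of 24 cell cycle genes, 10 were above the range in bulk_6883c1 and 1 in bulk_6883c4, with none below, and the medians were 0.92 in bulk_6883c1 and 0.09 in bulk_6883c4. The shares above over all genes were 9.74% and 4.98%. Mki67, which encodes the proliferation antigen Ki-67, stood at 579 CPM in bulk_6883c1 and 383 CPM in bulk_6883c4, against 48.7 to 242 CPM in the high libraries (median 148), past the range in both tumours, with differences of 2.02 and 1.42 (SD 0.46). Foxm1, a transcription factor of mitosis, stood at 200.3 CPM in bulk_6883c1 and 74.8 CPM in bulk_6883c4, against 36.7 to 93.4 CPM in the high libraries (median 48.2). Aurkb, a mitotic kinase, stood at 70.2 CPM in bulk_6883c1 and 28.7 CPM in bulk_6883c4, against 17.7 to 35.3 CPM in the high libraries (median 22.1). Genes of DNA replication such as Mcm2 and Pcna were inside the range in both. None of the 16 genes of MYC and ribosome biogenesis was called in either tumour, with medians of 0.24 in bulk_6883c1 and 0.03 in bulk_6883c4, and Myc itself was at 113 and 120.1 CPM within 74.5 to 192 CPM.

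Hypoxia and glycolysis genes were low for 6 of 20 in bulk_6883c1 and 3 in bulk_6883c4, with none above and medians of -0.71 in bulk_6883c1 and -0.51 in bulk_6883c4. The shares below over all genes were 8.67% and 1.90%. Hk2, the first enzyme of glycolysis, stood at 60.9 CPM in bulk_6883c1 and 66.6 CPM in bulk_6883c4, against 127 to 456 CPM in the high libraries (median 209.8). Slc2a1, the glucose transporter GLUT1, stood at 109 CPM in bulk_6883c1 and 100.5 CPM in bulk_6883c4, against 142 to 585 CPM in the high libraries (median 254). Vegfa, the vessel growth factor, stood at 121 CPM in bulk_6883c1 and 184 CPM in bulk_6883c4, against 282 to 632 CPM in the high libraries (median 382). These 3 genes were below all high libraries in both tumours. Ldha, lactate dehydrogenase, and Pdk1, a kinase that restrains pyruvate oxidation, were inside the range. Of 15 genes of MAPK feedback, 3 were above in bulk_6883c1, where 9.74% of all genes were, and 1 was below in bulk_6883c4, where 1.90% were. Etv1, an ETS factor, stood at 93.9 CPM in bulk_6883c1 and 7.99 CPM in bulk_6883c4, against 1.497 to 10.8 CPM in the high libraries (median 3.699). Spry1, an inhibitor of receptor signals, stood at 111 CPM in bulk_6883c1 and 63.6 CPM in bulk_6883c4, against 32.2 to 51.7 CPM in the high libraries (median 40.7). Egr1, an immediate early factor, stood at 229 CPM in bulk_6883c1 and 102 CPM in bulk_6883c4, against 138 to 788 CPM in the high libraries (median 230.2). Etv1 and Spry1 were called in bulk_6883c1, and Egr1 was below the range in bulk_6883c4.

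**Figure D5:**
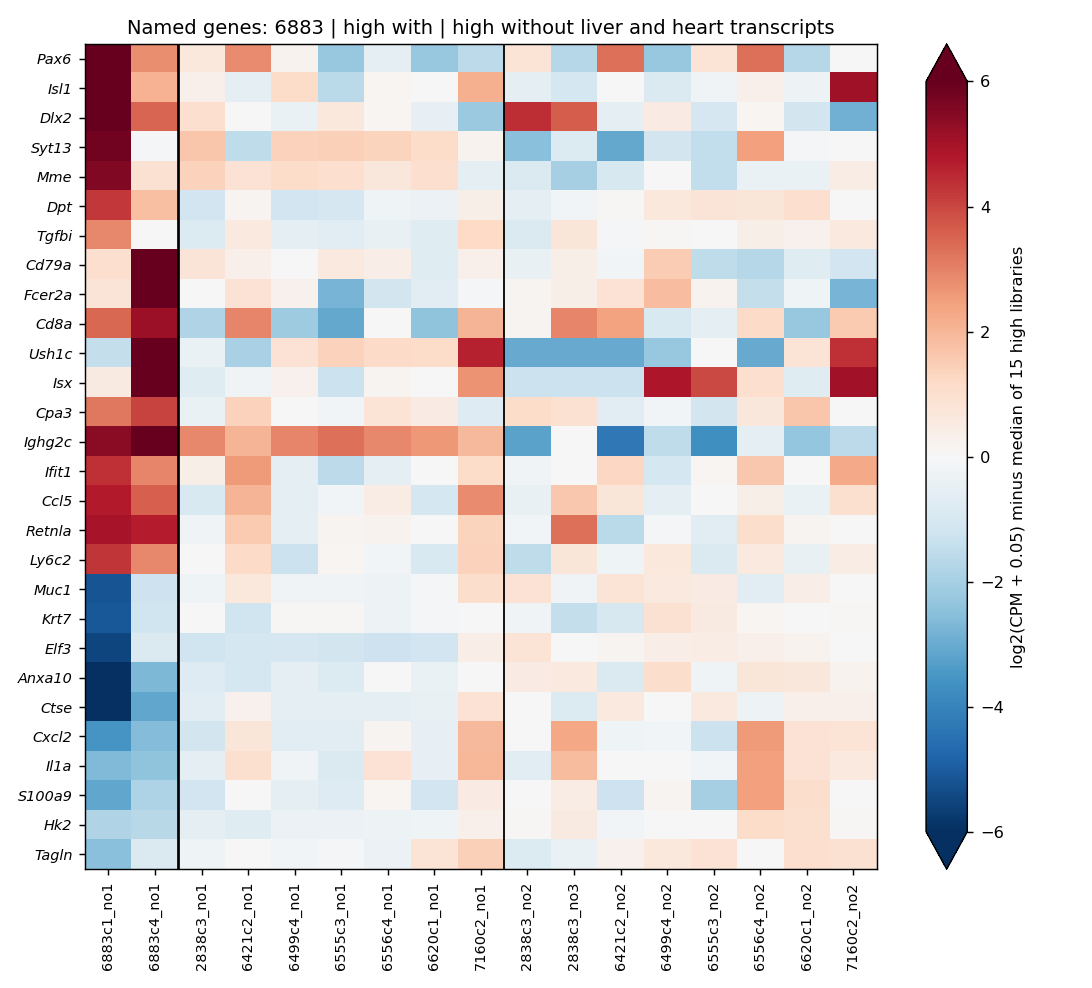
Level of selected genes named in the text in bulk_6883c1, in bulk_6883c4 and in the 15 high libraries, as log2(CPM + 0.05) minus the median of the high libraries, with red above and blue below that median and colours limited at 6. The top rows are red in bulk_6883c1, the B cell rows in bulk_6883c4, and the granulocyte factors and Ctse are blue in both.

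Other tissues differed between the 2 libraries. The liver list, whose 19 genes that passed the filter are all among those higher in libraries with these transcripts, summed to 481 CPM in bulk_6883c1 and 2901 CPM in bulk_6883c4, against 36.3 to 22609 CPM in the high libraries (median 655). None of these genes was called in either tumour, with medians of 1.25 in bulk_6883c1 and 3.76 in bulk_6883c4. The heart list summed to 156 CPM in bulk_6883c1 and 835 CPM in bulk_6883c4, against 20.5 to 7073 CPM in the high libraries (median 389.7), with 0 called in bulk_6883c1 and 1 in bulk_6883c4. Alb, serum albumin, was at 145 CPM in bulk_6883c1 and 791 CPM in bulk_6883c4, against 0 to 7293 CPM in the high libraries. Of all the called genes, those at least 4-fold higher in labelled libraries with liver and heart transcripts were 20 of 1638 above and 21 of 1458 below in bulk_6883c1, and 22 of 837 above and 0 of 319 below in bulk_6883c4. Among all 16822 genes, 917 were of this kind. The high libraries hold both more and less of these transcripts than the bulk_6883 libraries, so such genes could seldom leave the range. These counts are no test of the part of the transcripts in the calls.

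Red blood cell genes were higher in bulk_6883c1 than in bulk_6883c4 by at least 4-fold for 8 of 8 genes, as were 1.43% of all genes. In bulk_6883c1 none left the high range, and in bulk_6883c4 only Slc4a1, the anion exchanger of red blood cells, was called, below it. Hba-a2, an alpha globin, stood at 93.9 CPM in bulk_6883c1 and 2.56 CPM in bulk_6883c4, against 1.52 to 125 CPM in the high libraries (median 4.55). Of 9 fat genes that passed the filter, 3 were above and 2 below in bulk_6883c1, and 3 above in bulk_6883c4. Over all genes, 9.74% were above and 8.67% below in bulk_6883c1, and 4.98% and 1.90% in bulk_6883c4. Cfd, the complement factor adipsin of fat cells, stood at 7.302 CPM in bulk_6883c1 and 9.68 CPM in bulk_6883c4, against 0.108 to 2.98 CPM in the high libraries (median 0.9902). Adipoq, the fat hormone adiponectin, stood at 1.28 CPM in bulk_6883c1 and 1.64 CPM in bulk_6883c4, against 0.0270003 to 0.928 CPM in the high libraries (median 0.1599). Of 12 skeletal muscle genes, 1 was below in each tumour, Tnni2, a fast troponin, at 2.78 CPM in bulk_6883c1 and 7.02 CPM in bulk_6883c4, against 7.25 to 47.7 CPM in the high libraries (median 24.97).

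None of the 11 mitochondrially encoded genes that passed the filter was called, with medians of 0.65 in bulk_6883c1 and 0.38 in bulk_6883c4. Of the 5 sex-linked genes none was called either. Xist, the RNA that silences an X chromosome, was at 1107 CPM in bulk_6883c1 and 962 CPM in bulk_6883c4, within 0.442 to 2266 CPM, and Ddx3y, a gene of the Y chromosome, was at 0.593 CPM in bulk_6883c1 and 7.45 CPM in bulk_6883c4, within 0 to 48.6 CPM. The sex of the mice is not given in the labels.

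Across all 16822 genes, bulk_6883c1 was most like bulk_6883c4, with a Pearson correlation of log2 CPM of 0.935 and a Spearman correlation of 0.941, and next most like the first tumour of high clone bulk_6421c2, at 0.916 and 0.924. Library bulk_6883c4 was most like the first tumour of high clone bulk_6421c2, at 0.951 and 0.958, then like the first tumour of low clone bulk_6419c1 and the first of intermediate clone bulk_7160c5. Without the genes of liver and heart, 15905 genes, the Pearson correlation of the bulk_6883 tumours was 0.936. These values are over genes within pairs of libraries, and genes are not independent replicates. No order of the phenotypes is read from them.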

How the data were processed

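RNA of 37 bulk mouse tumours was measured, and 17 libraries are compared here. The authors deposited 1 table of counts per gene, 39017 genes, which holds raw whole-number counts judged from the values. The submitters' processing notes name STAR, featureCounts and mm10. Tool versions, gene annotation, strandedness and the handling of multi-mapping reads were not given in the sources used here. Overlapping genes, antisense genes and near-copies are therefore uncertain.

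TMM factors over the 17 libraries came from edgeR 4.0.16 in R 4.3.3, and log2 CPM used a prior count of 2. Genes with at least 0.5 CPM in at least 4 libraries were kept. The mean of the high tumours is the mean over 7 clones of clone means, and SDs are over clones. Calls needed a value outside the range of the 15 high libraries and 2-fold, or 4-fold between the bulk_6883 tumours. The rule was tested on simulated data. No p-value was computed.

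The members and all 38 gene lists were chosen with earlier results of these data known. Named genes are the 5 markers, up to 3 called members of each list or else its most abundant member, and the 8 largest differences per library, direction and pair with at least 5 CPM, without predicted genes and genes of liver and heart. Other list members were named after their values were seen, for contrast. Some genes that the rule names are not reported here. Total counts are given per library, and counting limits the precision of genes at low levels. Coordinates are from GENCODE M21, and promoters are the 250 bases before each start in RefSeq tables. Alternatives changed the scaling, filter, prior count, fold, high libraries and genes used.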

Additional observations from a re-analysis of the deposited data

Results flagged for a closer look

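For 2 of the genes picked by the naming rule, the bulk_6883 tumours lay on opposite sides of all 15 high libraries. Ehf and Spink4, described above but not picked by that rule, did so in the other direction. Camk1g, a calcium-dependent kinase, was 5.58 higher on the log2 scale in bulk_6883c1 than in bulk_6883c4. It was at 7.82 CPM in bulk_6883c1, above the highest high library, and at 0.1195 CPM in bulk_6883c4, below the lowest, with 0.266 to 1.39 CPM in the high libraries. Cspg4, a proteoglycan of pericytes, was 3.93 higher in bulk_6883c1 than in bulk_6883c4, with 128 CPM in bulk_6883c1 and 8.37 CPM in bulk_6883c4, against 8.72 to 40.8 CPM in the high libraries. The value of bulk_6883c4 was close to the edge of the range for Cspg4. The differences between the tumours were not tested, since there is 1 library of each.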

How the results depend on the processing

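Of 132 recomputed counts of called genes, 108 were within 1.5 times the reported count. With a fold of 1.5, or 3 between the bulk_6883 tumours, bulk_6883c1 was above for 2714 genes, bulk_6883c4 above for 1353 and below for 728, both above for 772 and both below for 414, and 451 genes were higher in bulk_6883c1 than in bulk_6883c4. With a fold of 4, or 8 between them, bulk_6883c1 was above for 514 and below for 699, bulk_6883c4 above for 361 and below for 53, both above for 156 and both below for 31, and 70 genes were higher and 428 lower in bulk_6883c1 than in bulk_6883c4. A looser or stricter fold changes these counts by construction. Against the high libraries with liver and heart transcripts alone, which are fewer, bulk_6883c1 was below for 2578 genes, bulk_6883c4 for 745 and both for 528. Against those without, bulk_6883c4 was above for 1735 and below for 669, both above for 1012 and both below for 403. Without a filter on low counts, where more genes enter, bulk_6883c4 was above for 1510, both above for 661, and 412 were higher in bulk_6883c1 than in bulk_6883c4. No paired analysis was possible because no test was made and each bulk_6883 clone has 1 tumour.

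No marker changed sign under any alternative run. Ncr1 in bulk_6883c1 was 4.67 above the high clones with a prior count of 0.5 and 2.78 with 5, and in bulk_6883c4 3.32 with 0.5, against 3.58 and 2.29 as reported. Of 612 list medians, 587 stayed within the spread of the high clones. The medians of bulk_6883c4 for macrophages, ductal genes, mesenchymal genes, fibroblasts, cell cycle and MYC lie near 0 and took the other sign under at least 1 alternative. Those of skeletal muscle and fat did so in both tumours with the class of high libraries: for muscle in bulk_6883c1 the median was -2.80 against those with liver and heart transcripts and 1.80 against those without. Plasma cell medians kept their sign but were 0.44 and 0.97 against the libraries with these transcripts and 2.78 and 4.28 against those without, in bulk_6883c1 and bulk_6883c4.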
